A study of Drosophila melanogaster with 2 samples.

Results

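The 10 genes described here belong to the Drosophila epidermal growth factor receptor (EGFR) pathway: the ligands spi and vn, the proteases rho and ru, the receptor Egfr, the GTPase Ras85D, the nuclear effectors pnt and aop, and the inhibitors aos and sty. They are 10 of 13945 protein-coding genes and were chosen by name with earlier results on these peaks known, so the peak signals that follow are descriptions and carry no test. Charlatan (chn), a zinc-finger transcription factor known in Drosophila for its role in sensory organ formation, was mapped by ChIP-seq with an antibody against GFP. The chromatin came from whole embryos of both sexes collected over 0 to 24 h, from a transgenic line that carries chn with GFP fused to its C-terminus, and was sonicated to 200 to 800 bp. The 2 samples are biological replicates 1 and 2 of this 1 group, so no treatment or genotype was contrasted. All cell types and stages of the embryo are mixed in each sample, so occupancy in more cells and stronger occupancy per cell cannot be told apart.

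In the EGFR pathway, a ligand made as a membrane-bound precursor is cut by a Rhomboid-type protease, is released and activates the receptor tyrosine kinase on neighbouring cells. The signal passes through Ras and the MAP kinase cascade to ETS-domain factors in the nucleus, where an activator and a repressor compete for the same sites. Several of its targets are its own inhibitors, and the pathway is used again and again in the embryo, in patterning of the ventral ectoderm, in the tracheae, in muscle precursors and in sensory organs.

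Peaks were taken on build dm6. The summit is the position of the highest signal in a peak, and the signal is the deposited value by which peaks were ranked within a list, with rank 1 the strongest. The thresholded set holds the 4537 summits kept after the irreproducible discovery rate (IDR) step, a filter on how well replicates rank the same peaks, and these are also the 4537 strongest of the 30000 in the pooled list. Their signal ran from 71.4 to 1972. The set thus equals a cut on pooled signal, and being in it does not mean that both replicates rank a given summit alike. Each replicate has a list of 30000 peaks of its own. Depth is unknown because no read totals come with the lists, so a site absent from them may be unbound or only weakly bound.

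The DNA at the strongest thresholded summit is shown for 9 of the 10 genes, all but Egfr, as the summit and 50 bases on each side of it, on the plus strand of dm6 from the Release 6 genome of RefSeq, because these are the sites on which the values below rest. Capitals mark matches, on either strand, to any of the 8 short sequences searched, whose letters are given with their counts further on.
spi (chr2L:19575710-19575810): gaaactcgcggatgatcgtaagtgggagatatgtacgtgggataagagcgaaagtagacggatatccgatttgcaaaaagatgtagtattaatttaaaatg
vn (chr3L:5824190-5824290): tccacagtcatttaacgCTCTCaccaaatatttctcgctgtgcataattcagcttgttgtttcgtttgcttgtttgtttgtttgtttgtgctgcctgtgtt
rho (chr3L:1464505-1464605): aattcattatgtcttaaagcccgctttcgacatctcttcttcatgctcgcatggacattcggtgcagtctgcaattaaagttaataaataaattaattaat
ru (chr3L:1368293-1368393): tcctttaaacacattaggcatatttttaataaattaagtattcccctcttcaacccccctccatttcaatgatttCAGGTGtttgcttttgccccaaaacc
Ras85D (chr3R:9513108-9513208): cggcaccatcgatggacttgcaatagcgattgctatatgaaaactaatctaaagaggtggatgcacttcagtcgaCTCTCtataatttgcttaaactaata
pnt (chr3R:23326455-23326555): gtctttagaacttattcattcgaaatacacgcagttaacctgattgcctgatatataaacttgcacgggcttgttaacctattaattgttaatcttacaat
aop (chr2L:2182914-2183014): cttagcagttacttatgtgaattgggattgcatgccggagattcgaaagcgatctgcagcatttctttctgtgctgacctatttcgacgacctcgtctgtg
aos (chr3L:16480511-16480611): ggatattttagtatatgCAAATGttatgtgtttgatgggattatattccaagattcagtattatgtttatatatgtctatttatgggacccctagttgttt
sty (chr3L:3396220-3396320): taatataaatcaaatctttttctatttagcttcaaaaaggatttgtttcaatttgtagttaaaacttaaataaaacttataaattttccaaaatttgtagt

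Of these 9 stretches, those of vn and Ras85D hold 1 GAGA match each, read on the opposite strand, and those of aos and ru hold 1 E-box each. The other 5 hold no match to any of the searched letters.

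Each of the 10 genes had at least 1 thresholded summit in its span or within 5 kb of it. The same was true of 49.3% of all protein-coding genes, and the share grew with the span of the gene. It was 45% of genes under 5 kb, the class of Ras85D, 61.2% of genes of 5 to 20 kb, the class of spi, rho, aos and ru, and 64.8% of genes of 20 kb or more, the class of Egfr, vn, pnt, aop and sty. Since the genes were chosen with such peaks in view, nothing is read from 10 of 10 against these shares.

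The 10 genes held 40 thresholded summits, and no summit was counted for more than 1 of them. Of these, 28 lay in the gene span, 8 in the upstream and 4 in the downstream 5 kb. The count was 9 at pnt and at aop, 4 at spi and vn, 3 at Egfr, sty and ru, 2 at aos and Ras85D, and 1 at rho. The nuclear effectors thus held 18 of the 40, the ligands 8, the inhibitors 5, the proteases 4, the receptor 3 and the GTPase 2. The median protein-coding gene held 0, and the median was 1 in both longer span classes. The spans and flanks together covered 319 kb and held 125 thresholded summits per Mb, against 33.9 per Mb over the 6 chromosome arms. The genes were chosen with such peaks in view, and pnt and aop held 18 of the 40 summits. Nothing is therefore read from this difference in density.

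**Figure D1:**
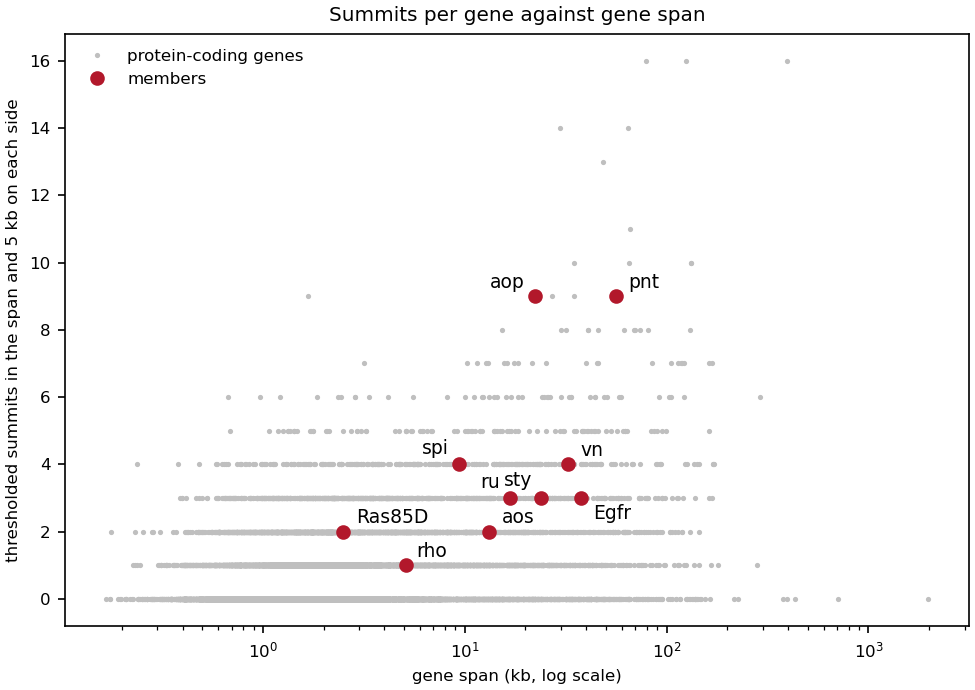
Number of thresholded summits in the span and 5 kb on each side (vertical axis) against gene span in kb on a log scale (horizontal axis), with the 10 EGFR pathway genes in red and all 13945 protein-coding genes in grey. The genes pnt and aop stand at 9 summits, with 11 genes above them, and the other 8 lie between 1 and 4.

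The summits of the pathway genes were of middling strength. Their median signal was 110, against 113 for the whole thresholded set, and their median rank was 2377. Among the 1000 strongest thresholded summits were 7 of the 40 (17.5%), against 22.0% of the whole set. These 7 lay at 5 genes, with 2 each at spi and aop and 1 each at pnt, aos and sty. The intervals of the 2 at spi overlap. The deposited −log10 q-value stood at its maximum of 3.89 at 32 of the 40 and at 3851 of the 4537.

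**Figure D2:**
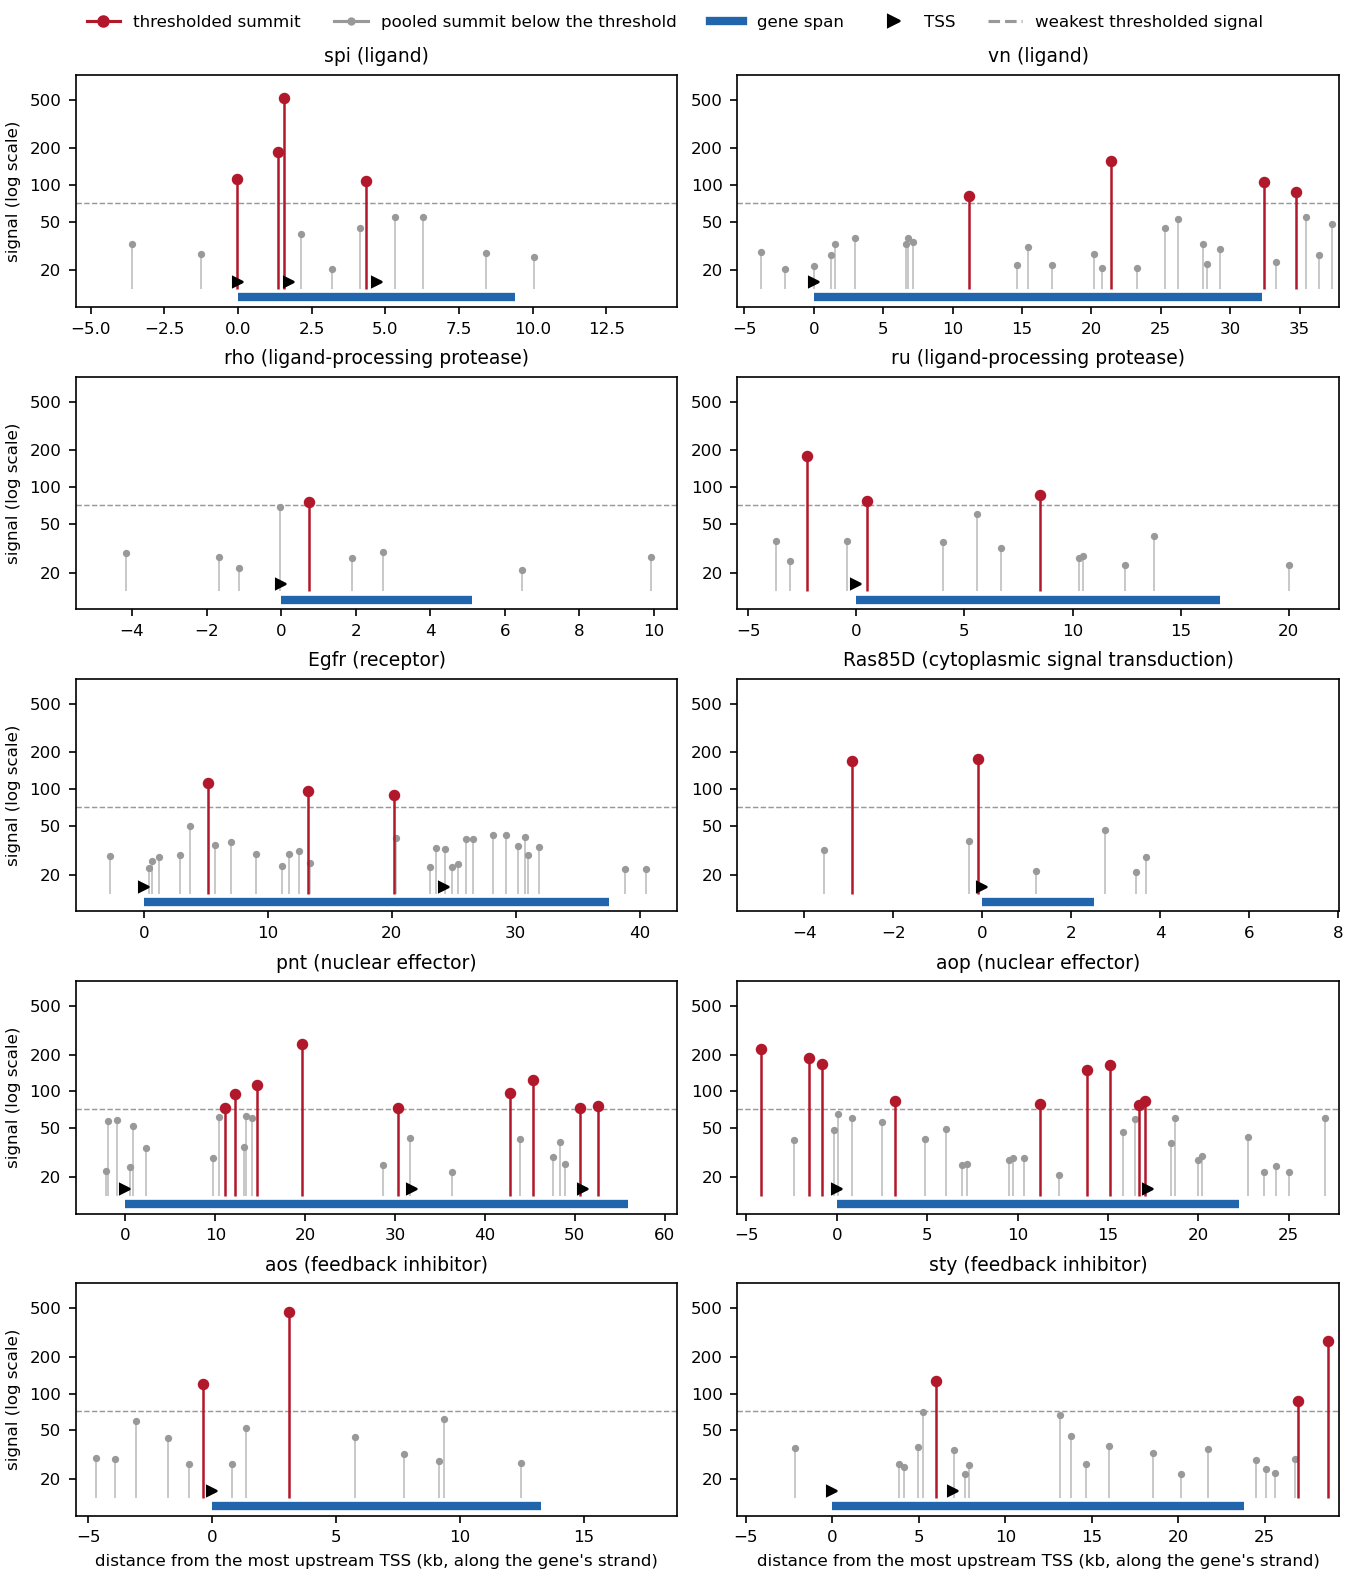
Signal of each summit on a log scale (vertical axis) against its distance in kb from the most upstream transcription start site, along the gene's strand (horizontal axis), with 1 panel per gene, thresholded summits in red, weaker pooled summits in grey, the gene span as a blue bar and start sites (TSS) as arrowheads. The strongest summits are those of spi at 514, beside a start site, and of aos at 469, inside the gene, while no summit of Egfr passes 113 and the only thresholded summit of rho lies just above the dashed line at 71.4.

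The gene spi (FBgn0005672) encodes Spitz, the TGF-alpha-like ligand made as a membrane-bound precursor. It lies on the minus strand of 2L from 19567900 to 19577315 and has 3 annotated start sites, each of which had a thresholded summit close by, at 38, 173 and 363 bp. The strongest peak, at 19575610 to 19575913 on 2L, had a signal of 514 and rank 90. Its summit lay 173 bp upstream of the start of spi-RG, and the overlapping peaks had signal 300.3 and rank 90 in replicate 1, and signal 215 and rank 97 in replicate 2. Both replicates placed it near the top of their lists. A peak whose interval overlaps that of the strongest had its summit 374 bp upstream of the same start. Its signal was 187 and its rank 923, with ranks 877 and 422 in replicates 1 and 2.

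Weaker summits stood at the outer start sites of spi. The summit 38 bp upstream of the start of spi-RA and spi-RF had signal 113 and rank 2288, with ranks 2355 and 2901 in the replicate lists, and a start site of msb1l lies within 1000 bp of it. The summit 363 bp upstream of the start of spi-RB and spi-RE had signal 107 and rank 2464, with replicate ranks 1851 and 2502. All 4 summits of spi were thus in its own promoters, which held for no other gene of the 10.

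The gene vn (FBgn0003984), which encodes the secreted neuregulin-like ligand Vein, differed in layout. It spans 32327 bp of 3L on the minus strand, from 5813338 to 5845664, with 1 start site. Its nearest thresholded summit lay 11211 bp from that start, in an intron, with signal 81.2 and rank 3814, and ranks 4895 and 4261 in replicates 1 and 2. The strongest, with signal 157 and rank 1328, lay in an intron 21424 bp downstream of the start, and ranked 1620 in replicate 1 and 1049 in replicate 2. A pooled summit 55 bp from the start of vn was near the bottom of the list, at rank 27554.

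The other 2 summits counted for vn lay past its 3' end, at promoters of neighbouring genes. One, with signal 106, rank 2539 and replicate ranks 1959 and 4444, was 122 bp from a start of mad2. The other, with signal 88.0, rank 3376 and replicate ranks 2479 and 6232, was 8 bp from a start of S6k, with a start of kri within 1000 bp. Both thus lay far closer to a neighbour's start than to that of vn.

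Rhomboid, the intramembrane protease that releases Spitz, is encoded by rho (FBgn0004635), on the plus strand of 3L from 1463811 to 1468944. Its 1 thresholded summit had signal 75.7 and rank 4203 and lay in an intron 744 bp downstream of the start, where the gene Ptp61F also runs. The overlapping peaks ranked 4511 in replicate 1 and 4908 in replicate 2. A pooled summit 39 bp upstream of the start of rho had signal 69.1 and rank 4759, just short of the threshold, with replicate ranks 3536 and 5569. Both sites are thus close to the threshold, on opposite sides of it.

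The related protease gene ru (FBgn0003295), known for its part in eye development, lies on the plus strand of 3L from 1370628 to 1387437, also inside Ptp61F. Its strongest summit had signal 180 and rank 1024, 2285 bp upstream of the start, with ranks 914 and 1150 in replicates 1 and 2. Inside the gene, the summit 8493 bp downstream had signal 86.2, rank 3471 and replicate ranks 3604 and 6168. The summit 505 bp downstream of the start had signal 76.9 and rank 4119, and the replicates ranked it differently, at 7998 in replicate 1 and 2447 in replicate 2. All 3 of these summits are intronic and within Ptp61F, and the start of ru is the nearest protein-coding start to each.

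Ras85D (FBgn0003205) encodes Ras, the GTPase that carries the signal from the receptor to the kinase cascade. It is the shortest of the 10 genes, with 2507 bp on the minus strand of 3R from 9510561 to 9513067, and none of its summits lay in the gene itself. The summit 91 bp upstream of its start had signal 176 and rank 1082, and ranked 808 in replicate 1 and 1050 in replicate 2. A start of Rlb1 lies within 1000 bp of this summit. The other, 2925 bp upstream, had signal 171, rank 1120 and replicate ranks 1144 and 1170, and lay 15 bp from a start of CG8176, with starts of Kdm3 and mRpL47 within 1000 bp.

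The gene pnt (FBgn0003118) encodes Pointed, the ETS-domain activator that MAP kinase signalling switches on. It is the longest of the 10 genes, 55937 bp on the minus strand of 3R from 23290231 to 23346167, with 3 start sites. All 9 of its thresholded summits lay inside the span with a start of pnt as the nearest protein-coding start, with 8 in introns and the other in a promoter. Strongest was an intronic summit with signal 244 and rank 502, 12190 bp upstream of the start of pnt-RD, which ranked 596 in replicate 1 and 538 in replicate 2.

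The next 5 summits of pnt were all intronic. The one with signal 125 and rank 1930, 5599 bp upstream of the start of pnt-RC and pnt-RE, ranked 1994 and 1921 in the replicates, and the one with signal 113 and rank 2268, 14680 bp downstream of the start of pnt-RB, ranked 2173 and 2176. Those with signals 96.2 (rank 2919, replicate ranks 2958 and 3346), 95.1 (rank 2965, replicate ranks 2695 and 3807) and 76.6 (rank 4140, replicate ranks 4530 and 4145) followed. In each of these 5 the replicate ranks differed by less than a factor of 2. The promoter summit, 294 bp upstream of the start of pnt-RC and pnt-RE, was among the weakest, with signal 73.1, rank 4410 and replicate ranks 3649 and 5789.

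The ETS-domain repressor Yan, which Pointed competes with, is encoded by aop (FBgn0000097), on the minus strand of 2L from 2156484 to 2178754. Its 9 thresholded summits, 6 in the span and 3 upstream, gave it the highest density of the 10 genes, 2.79 per 10 kb of span and flanks. The genes with at least 9 thresholded summits were 16 in all, or 0.115% of protein-coding genes. This share is not matched for gene span, since 10461 protein-coding genes span under 5 kb. Both pnt and aop are among the 1013 of 20 kb or more. CG1677, kirre and sbb had the most, with 16 each, followed by chn itself and ush with 14 each.

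The 3 strongest summits of aop formed a group upstream of the gene. With distances of 4210, 1541 and 842 bp from the start of aop-RB, aop-RC and aop-RE, their signals were 222, 186 and 166 and their ranks 634, 946 and 1183. In replicate 1 they ranked 545, 1186 and 1469, and in replicate 2 889, 711 and 1031. The farthest of these lay in an exon of the noncoding gene lncRNA:CR43751, the other 2 were intergenic, and the nearest protein-coding start was that of aop for all 3.

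Inside aop, 2 intronic summits had signals of 163 (rank 1221, replicate ranks 1188 and 1303) and 150 (rank 1449, replicate ranks 1611 and 1067), at 2122 and 3406 bp upstream of the inner start shared by aop-RA and aop-RD. Another intronic summit, at signal 84.3 and rank 3601, ranked 3860 and 3658. The strongest summit in a promoter of aop was weaker, with signal 83.3 and rank 3663, 188 bp upstream of the inner start. Its interval overlaps that of a summit 499 bp upstream with signal 77.5 and rank 4069, and a single replicate 2 peak of rank 1702 overlaps both, while in replicate 1 they ranked 3153 and 5050.

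The gene aos (FBgn0004569) encodes Argos, a secreted inhibitor that binds Spitz and is itself a target of the pathway. It lies on the minus strand of 3L from 16470386 to 16483650, within CG33158. Its strongest peak, at 16480432 to 16480715 on 3L, had signal 469 and rank 112, and its summit lay in an intron 3089 bp downstream of the start. The overlapping peaks had signal 277 and rank 107 in replicate 1, and signal 191 and rank 121 in replicate 2. Of the 40 summits only the strongest of spi ranked higher, in the pooled list and in both replicates, and no thresholded summit outside the 5 kb flank came nearer than 50465 bp. The promoter summit, 384 bp upstream of the start, had signal 120 and rank 2049, and ranked 3182 in replicate 1 and 1354 in replicate 2.

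Sprouty, an intracellular inhibitor of receptor tyrosine kinase signalling, is encoded by sty (FBgn0014388), on the minus strand of 3L from 3401153 to 3424935. The strongest of its 3 summits, with signal 268 and rank 421, lay in intergenic sequence 4883 bp past the 3' end, and ranked 380 in replicate 1 and 545 in replicate 2. A weaker summit 3163 bp past the 3' end had signal 87.0, rank 3434 and replicate ranks 4171 and 2894. The protein-coding start nearest to both was that of Ids, 18002 and 19722 bp away, so neither lay near a protein-coding start. The summit in the gene had signal 127 and rank 1884, in an intron 967 bp upstream of the start of sty-RB, with replicate ranks 1787 and 2112. The start of sty-RC had no thresholded summit nearer than 6007 bp.

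The strongest summit of the receptor gene ranked below those of 8 of the other genes and above that of rho. Egfr (FBgn0003731) spans 37558 bp of 2R on the plus strand, from 21522420 to 21559977, with 2 start sites, and its 3 thresholded summits were all intronic. The strongest had signal 113 and rank 2290, lay 5122 bp downstream of the start of Egfr-RA, and ranked 1662 in replicate 1 but 6315 in replicate 2. The one 11028 bp upstream of the start of Egfr-RB had signal 97.1, rank 2882 and replicate ranks 2564 and 4940, and the one 4063 bp upstream of that start had signal 89.0, rank 3318 and replicate ranks 4585 and 3116. The replicates thus ordered these sites differently.

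For 2 of the Egfr summits another gene's start was nearer than its own, with starts of CG30286 and CG30283, both inside the Egfr span, 1180 and 2007 bp away. No thresholded summit lay within 1000 bp of either start of Egfr. The pooled list has summits 59 and 430 bp from them, at ranks 14065 and 25400. Egfr held 32 pooled summits in all, 29 of them below the threshold, the strongest of these with signal 50.2 and rank 7412.

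Counted over all 10 genes, 5 had a thresholded summit within 500 bp of one of their own start sites: spi, aos, pnt, aop and Ras85D. This compared with 21.3% of protein-coding genes. Within 1000 bp the genes were 8, with rho, ru and sty added, against 24.2% of protein-coding genes. Egfr and vn were the 2 without one. The genes were chosen with such peaks in view, and spi, pnt, aop, Egfr and sty have 2 or 3 annotated starts each. Nothing is therefore read from 5 or 8 of 10 against the shares of all protein-coding genes. Of the 40 summits, 9 lay within 500 bp of an own start, 3 lay in a promoter of another gene alone, and 27 were farther than 1000 bp from every own start.

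By annotated location, 23 of the 40 summits (57.5%) were in introns, against 30.9% of all thresholded summits. Promoters, defined as within 500 bp of any protein-coding start, held 12 (30%), against 51.7% of all thresholded summits. Another 4 (10%) were intergenic, 1 was in a noncoding exon, and coding exons and untranslated regions held 0. Coding exons held 15 of all 4537 as well, although 15.9% of the 24584 relaxed summits, those of the pooled list that overlap no thresholded peak, were in coding exons. Of the 23 intronic summits 8 were at pnt and 4 at aop, so these 2 genes carried more of them than the other 8 genes together. Among the 1000 strongest thresholded summits, 2 of the 7 at the pathway genes were intronic. The intronic share of all 1000 was not computed, so nothing is read from 2 of 7. The shares by location are not matched for gene span. Of the 10 genes 5 span 20 kb or more, against 1013 of 13945 protein-coding genes.

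The nearest protein-coding start belonged to the gene itself for 32 of the 40 summits and to another gene for 8. Those 8 were 3 of vn, 2 each of Egfr and sty, and 1 of Ras85D. A further 7 summits lay inside another annotated gene: 4 at rho and ru within Ptp61F, 2 at aos within CG33158 and 1 at aop within lncRNA:CR43751. Beyond the 5 kb flank, the next thresholded summit was nearest at spi, at 5071 bp, and at sty, at 5549 bp.

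The pooled list held 200 summits at the 10 genes, of which 160 were below the threshold. Of these 160, 99 were in introns, 21 in coding exons, 17 in promoters, 10 in 5' UTRs and 9 intergenic. Introns thus held 61.9%, against 37.0% of all relaxed summits, and the share in 5' UTRs, 6.25%, was also the higher. Lower shares were found in promoters (10.6% against 21.7%), coding exons (13.1% against 15.9%) and intergenic sequence (5.6% against 19.9%). Some of the 160 overlap a thresholded peak, which relaxed summits do not. These shares are not matched for gene span either, so nothing is read from them. The weakest thresholded summits of the set were those of rho at rank 4203 and pnt at ranks 4366, 4410 and 4416, with signals of 75.7, 73.6, 73.1 and 73.0. The strongest left outside were an intronic summit of sty at rank 4569, the promoter summit of rho at rank 4759, another intronic summit of sty at rank 4988 and a promoter summit of aop at rank 5111. Their signals were 71.2, 69.1, 66.9 and 65.7.

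**Figure D3:**
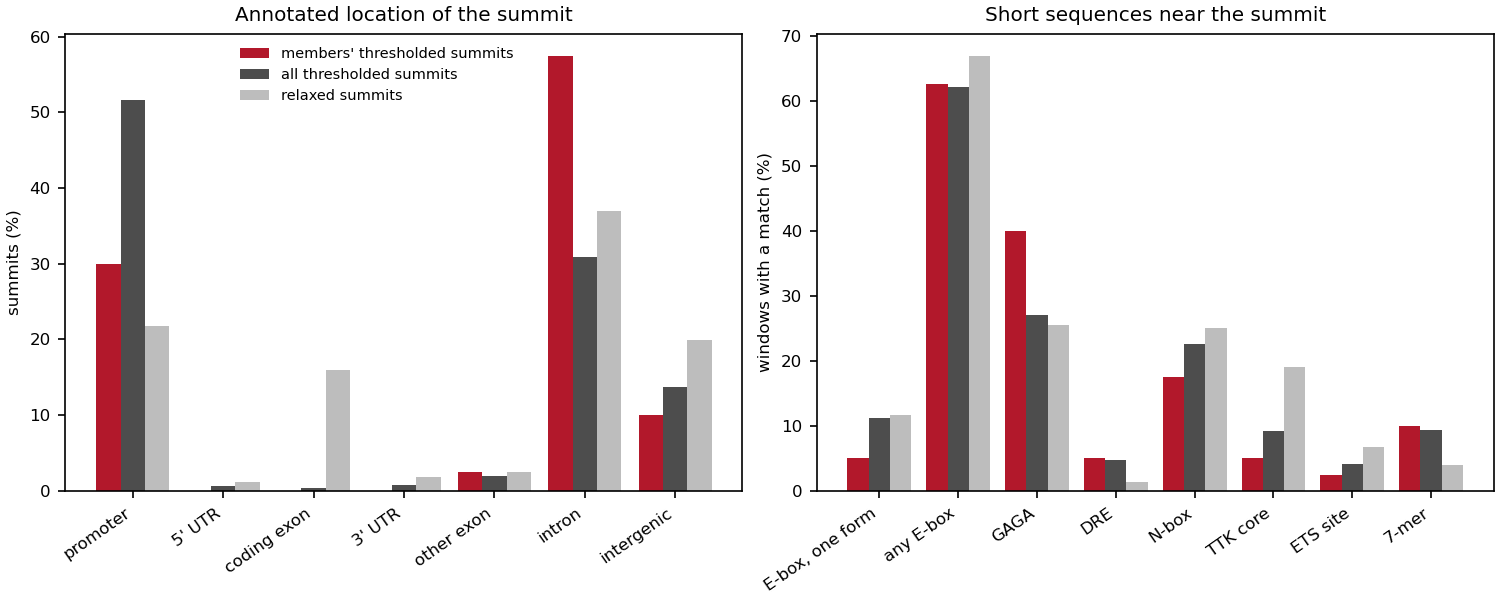
Left, share of summits in each annotated location, and right, share of windows, the summit and 100 bases on each side, with a match to each of 8 short sequences, in percent, for the 40 thresholded summits of the pathway genes (red), all 4537 thresholded summits (dark grey) and 24584 relaxed summits (light grey); "E-box, one form" is CAGCTG and "7-mer" is ACAGTGG. Intronic summits make up 57.5% of the red set and 30.9% of the dark grey one, and GAGA matches 40% and 27.0%. The sets are not matched for gene span.

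All 40 summits overlapped a peak in both whole replicate lists, by at least 1 bp, as did 4534 of the 4537. The thresholded set was made from these same replicates, so this is a description of the set. When each list was kept to its strongest 4537 peaks, 30 of the 40 (75%) overlapped a peak in both, against 78.5% of all thresholded summits. All summits of spi, aos, aop, sty and Ras85D were among these 30, as were 6 of 9 at pnt, 2 of 4 at vn and 2 of 3 at ru. The 3 summits of Egfr and the 1 of rho were not.

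Taking the peak with the nearest summit in each list, the ranks were within a factor of 2 of each other for 33 of the 40 summits, and the largest factor was 3.80, at the strongest summit of Egfr. Replicate 1 gave the better rank for 22 and replicate 2 for 18. In 36 of the 40, both replicate summits lay within 100 bp of the pooled one. These counts use the whole lists, and the same shares of all thresholded summits were not computed. With each list kept to its strongest 4537 peaks, both had a summit within 100 bp for 25 of the 40 (62.5%). The same held for 72.4% of all thresholded summits.

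**Figure D4:**
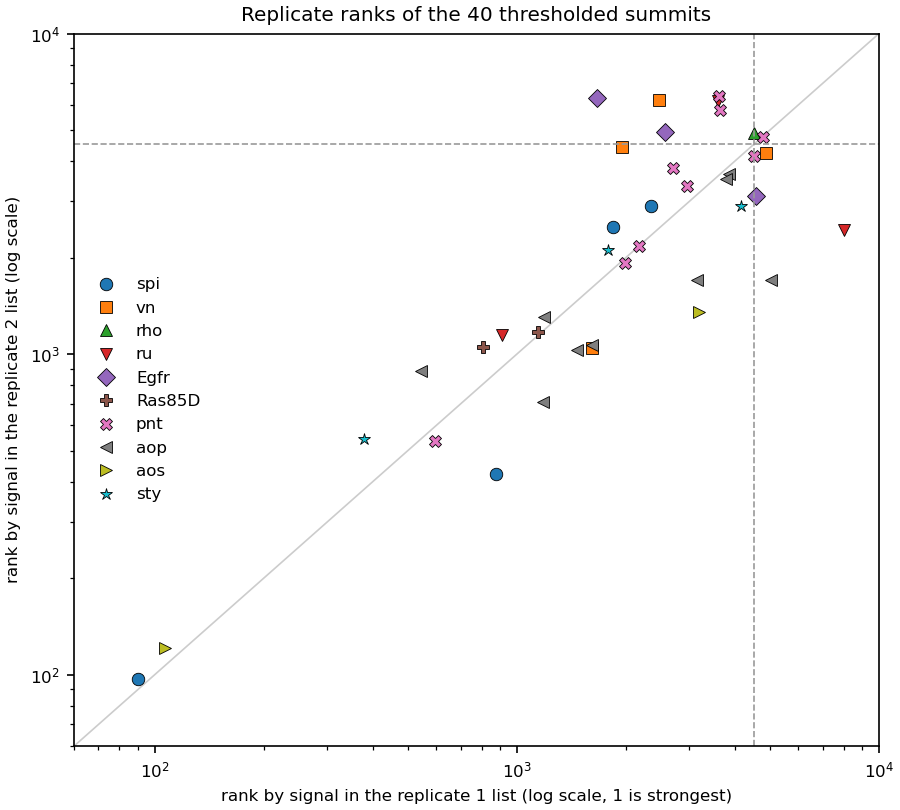
Rank of the overlapping peak in replicate 2 (vertical axis) against that in replicate 1 (horizontal axis), both on log scales with 1 the strongest, for the 40 thresholded summits, marked by gene; the solid line marks equal ranks and the dashed lines rank 4537. The strongest summits of spi and aos lie near ranks 90 to 121 in both lists, and the points spread from the line mostly at weak ranks, where Egfr, vn, rho, ru, pnt and aop have summits past 4537 in one list and pnt has 1 past it in both.

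With the strongest 4537 peaks of 1 replicate in place of the thresholded set, most counts stayed close. Replicate 1 alone gave 9 summits at aop, 8 at pnt, 5 at spi, 4 at sty, 3 at vn and ru, and 2 at Egfr, rho, aos and Ras85D. Replicate 2 alone gave 8 at aop and pnt, 4 at spi and vn, 3 at sty and ru, 2 at aos and Ras85D, 1 at Egfr and 0 at rho. Only rho lost its place among the occupied genes in this way, and only with replicate 2 alone.

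In windows of the summit and 100 bases on each side, GC content averaged 39.6% over the 40 summits, against 38.8% over all thresholded summits and 45.7% over relaxed ones. Single windows ran from 28.9%, at the strongest summit of sty, to 60.2%, at the promoter summit of aop. Each motif was searched on both strands, and CAGCTG is counted under CANNTG as well. A match is only a match of letters.

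The general E-box CANNTG, the core bound by basic helix-loop-helix factors, was in 25 of the 40 windows (62.5%), against 62.0% of thresholded and 66.9% of relaxed windows. It was in 8 of the 9 windows of pnt and in all 3 of ru. The E-box form CAGCTG was in 2 (5%), 1 each at vn and aop, against 11.3% and 11.7%. GAGA, spelled GAGAG, the site of GAGA factor, was in 16 (40%), against 27.0% and 25.5%, with 5 at aop and 4 at pnt. The 7-mer ACAGTGG was in 4 (10%), against 9.30% and 4.03%, namely in windows of spi, aos, aop and ru. Those of spi and ru are at the strongest summits of these genes, outside the stretches shown.

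Of the other letters, TATCGATA, the DNA replication-related element (DRE), was in 2 windows (5%), of Ras85D and vn, against 4.78% and 1.34%. CACNAG, the N-box of Hairy-related repressors, was in 7 (17.5%), against 22.6% and 25.0%, with 3 at aop and 2 at Egfr. AGGAC, the core of sites for the repressor Tramtrack (TTK), was in 2 (5%), against 9.15% and 19.0%. CCGGAA, a form of the site of ETS-domain factors such as Pointed and Yan, was in 1 (2.5%), at pnt, against 4.12% and 6.76%. Windows with none of the 8 sequences were 4, 1 each at spi, rho, aop and sty.

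A list of 30 other genes of the pathway was looked at in the same way, to place the 10 among their partners. A thresholded summit in the span or within 5 kb was found at 20 of the 30, and 11 had one within 500 bp of an own start, again beside 49.3% and 21.3% of protein-coding genes. By role these were 1 of 2 further ligands, 2 of 5 trafficking proteins and proteases, 4 of 7 adaptors and other proteins at the receptor, 4 of 5 members of the kinase cascade, 4 of 6 negative regulators and 5 of 5 nuclear proteins. At drk, Src42A, ksr, Mkp3 and Nf1, which are counted here, every thresholded summit was nearer to another gene's start than to an own start. All 5 nuclear genes (edl, cic, Ets21C, ttk and gro) also had an own promoter summit. Most of the 30 genes span 5 kb or more. A thresholded summit in the span or within 5 kb was found at 61.2% of protein-coding genes of 5 to 20 kb. The share was 64.8% for those of 20 kb or more. The list was also written with earlier results of these data known, so nothing is read from 20 or 11 of 30.

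Of these partners 2 carried a stronger summit than spi, the highest of the 10. The stronger was at Shc, an adaptor gene, with signal 909, rank 20 and replicate ranks 20 and 21, 122 bp upstream of its start and with a start of Atat within 1000 bp. Raf, the kinase directly below Ras, had 13 thresholded summits, the strongest intronic with signal 611, rank 62 and replicate ranks 62 and 66. Next came gro, the corepressor gene, with signal 486 and rank 98, S, which encodes the carrier of the Spitz precursor, with signal 479 and rank 105, and RasGAP1, which encodes a Ras inhibitor, with signal 477 and rank 107. The summits of cnk at rank 192, edl at rank 257 and cic at rank 422 followed, that of cnk nearer to l(2)k01209.

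The 10 partners with no thresholded summit were the ligand gene grk, the protease genes rho-4, rho-5 and rho-6, Sos, csw, Cbl, rl, kek1 and PTP-ER. Of these, Sos encodes the exchange factor that loads Ras, and rl the MAP kinase. The pooled list held 0 summits at rl and rho-6 and from 2 to 8 at the other 8.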

How the data were processed

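ChIP-seq peak lists of 2 replicates were used as the authors deposited them. The deposited inventories state that each replicate and the pooled reads had peaks called with a single control, and that IDR was then applied to give the thresholded set. For aligner and peak caller, no name is given in the sources used here. Neither the control nor the lists on build dm3 were analysed here. Nothing says that the deposited signal was scaled to depth, so it ranked peaks within a list and was not compared between lists. The deposited −log10 q-values end at one maximum and were not used to rank.

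Positions are 1-based on dm6. Genes come from Ensembl release 115 (BDGP6.54) and sequence from the RefSeq Release 6 assembly, whose 6 arms are longer than the largest peak ends. A summit was assigned to a gene if it lay in the span or within 5 kb, and to the first location that applied: promoter (500 bp of a protein-coding start), then 5' UTR, then coding exon, then 3' UTR, then any other exon, then intron, then intergenic. Replicate peaks were matched by an overlap of at least 1 bp. The members, the list of other pathway genes and the sequences searched were chosen with earlier results of these data known. All 10 genes were named, with every summit or the 6 strongest and the strongest in an own promoter, and of the other pathway genes the 8 with the strongest summit and all with none, and the 5 protein-coding genes with the most summits. No test was made, since there is 1 group and the peaks chose the genes. Counting was checked on simulated data. Python 3.11.15, numpy 2.4.6, pandas 2.3.3 and matplotlib 3.10.9 were used.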

Additional observations from a re-analysis of the deposited data

How the results depend on the processing

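With the 1000 strongest thresholded peaks, 5 of the 10 genes kept a summit, with 7 summits, 2 of them intronic, 1 gene had an own promoter summit, 12 of the 30 other pathway genes had a summit, and the share of protein-coding genes was 17.9%. With the gene span alone that share was 11.6%, and 9 of the 10 genes kept a summit. These values are not matched for gene length, since 10461 of the 13945 protein-coding genes span under 5 kb, against 1 of the 10. Nothing is read from their difference. For the 1000 strongest peaks, no share over all genes or summits was computed for own promoters or introns. Promoters of 1000 bp gave 8 genes with an own promoter summit and those of 200 bp gave 3. The E-box CAGCTG was in 1 window (2.5%) with 50 bases on each side of the summit, against 5.49% of thresholded and 6.02% of relaxed windows. With 200 bases it was in 5 windows (12.5%), against 22.0% and 20.8%. The other 29 of 40 recomputed values stayed within 1.5 times of the reported ones. Among them, a single replicate gave 9 to 10 genes, 35 to 40 summits, 4 to 6 genes with an own promoter summit, 49.0% to 49.2% of protein-coding genes and 20 to 21 other pathway genes. Flanks of 2 and 10 kb gave 34 and 49 summits, merged intervals 38, and summits nearest to an own start, a setting chosen after seeing the data, 32. The lists hold no read counts, so how far depth limits the weak summits, such as those of rho and Egfr, is unknown, and the samples share 1 line and 1 antibody. Embryos of all stages were mixed.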
